A study of Homo sapiens with 4 samples.

Results

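The binding proteins of the insulin-like growth factors (IGFs), the receptors of IGF1 and insulin, and the substrates that carry their signal were followed over 4 arrays of HepG2 cells. The group holds 10 genes, chosen by function with earlier results of these data in view: IGFBP1 to IGFBP6, IGF1R, INSR, IRS1 and IRS2. All 10 were found, read by 28 of the 41091 probe sets that carry exactly 1 gene symbol, out of 19775 genes and 54675 probe sets in all. A probe set is the group of short probes by which the Affymetrix U133 Plus 2.0 array reads one transcript.

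HepG2 is a human liver cancer cell line with hepatocyte traits. The arrays are 1 each of cells treated for 2, 6 and 12 h with APRIL at 200 ng/ml and of untreated cells (0 h). APRIL (TNFSF13) is a soluble cytokine related to tumour necrosis factor. All cells, the untreated ones included, had been deprived of serum; the series' design text gives 24 h for this step, and the labels' protocols say overnight. There are no replicates and no untreated array at 2, 6 or 12 h among those used here, so treatment and time in culture cannot be told apart, and no p-value is given. Each comparison is one between 2 arrays.

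IGFs circulate bound to IGF binding proteins, which prolong their life and withhold them from the receptor. The liver secretes several of them, and IGFBP1 is the classical binding protein that insulin turns down in hepatocytes through FOXO transcription factors. The IGF1 receptor and the insulin receptor are related tyrosine kinases that phosphorylate the adaptors IRS1 and IRS2, which in turn recruit PI3-kinase and activate AKT.

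Upstream sequences are shown for IGFBP3, INSR and IRS2. IGFBP3 is the binding protein with the largest difference, and INSR the receptor with the largest difference at 12 h over 0 h. Among the members searched, IRS2 alone matched the core letters of the insulin response element. IGFBP1 had no upstream sequence to search. Each sequence shown is the 250 bases before the annotated start in the RefSeq annotation of GRCh38.p14, read along the gene's own strand. They lie at chr7:45921273-45921522 (minus strand), chr19:7294415-7294664 (minus strand) and chr13:109786584-109786833 (minus strand). Capitals mark matches, on either strand, to any of 5 motifs.
IGFBP3: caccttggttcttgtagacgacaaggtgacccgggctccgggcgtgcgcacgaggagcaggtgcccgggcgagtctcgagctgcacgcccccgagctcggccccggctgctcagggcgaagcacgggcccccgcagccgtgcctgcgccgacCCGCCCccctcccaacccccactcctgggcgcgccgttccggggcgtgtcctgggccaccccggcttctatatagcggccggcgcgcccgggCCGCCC
INSR: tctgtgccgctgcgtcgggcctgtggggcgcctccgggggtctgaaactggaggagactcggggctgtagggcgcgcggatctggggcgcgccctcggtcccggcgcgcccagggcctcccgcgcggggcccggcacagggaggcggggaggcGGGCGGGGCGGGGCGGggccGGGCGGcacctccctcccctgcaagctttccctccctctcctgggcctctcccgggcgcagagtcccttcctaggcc
IRS2: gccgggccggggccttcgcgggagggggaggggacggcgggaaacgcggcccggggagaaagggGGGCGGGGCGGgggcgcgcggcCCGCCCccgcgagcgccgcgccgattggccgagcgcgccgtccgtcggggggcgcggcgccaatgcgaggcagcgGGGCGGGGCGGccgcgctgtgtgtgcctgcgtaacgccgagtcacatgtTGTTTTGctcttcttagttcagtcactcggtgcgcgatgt

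The motifs searched, by exact letters, were TATAAA (a form of the TATA box), GGGCGG (SP1), TGACTCA (AP-1), GCGTGGGCG (EGR1) and CAAAACA. The last is the core of the insulin response element that FOXO factors bind. The table of upstream sequences held 11 windows for 9 of the 10 members, 3 of them for IGFBP2. IGFBP1 had no window and was not searched for any motif. SP1 letters were present in 8 of these 9 members, in 9 of 11 windows, against 42.6% of all 35116 windows of this length. Some of the SP1 matches of INSR and IRS2 overlap one another. IGFBP3 has 2 SP1 matches on the reverse strand, at -98 to -93 and at -6 to -1 from the start. It has no exact match to the other 4 motifs. Other forms were not searched, so the letters TATATA in its window were not counted. Among these 9 members the CAAAACA letters were found in IRS2 only, on the reverse strand at -40 to -34, and in 4.3% of all windows. The exact letters TATAAA were found in IGFBP4 only among the 9, at -29 to -24, and in 10.7% of all windows. None of the 9 had AP-1 letters, which are in 4.2% of all windows, or EGR1 letters, which are in 0.72%. The window was rich in G and C at IGFBP3 (76.0%), INSR (78.4%) and IRS2 (76.4%), against a median of 58% over all windows. A match describes these letters and shows no binding.

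The deposited values are relative to each probe set's own median over the 4 arrays. They were taken as log2 values that rise with the amount of transcript, an assumption on which every fold and direction below rests, since no source states the base or the direction. They hold differences between arrays and no expression level. Levels of different members cannot be compared, and the presence of hepatocyte RNA cannot be read from them. A gene's log2 ratio is the median over its probe sets. As yardsticks, the robust SD of all genes over 0 h was 0.16 at 2 h, 0.20 at 6 h and 0.24 at 12 h, and it was 0.23 in the step from 6 h to 12 h. The SD between probe sets, given for most of the genes named that have 2 or more, covers measurement within these arrays and not variation between cultures. The bacterial RNAs that serve as hybridization controls, with 18 probe sets, lay lower on the 12 h array, with a median of -0.35 against 0 h and -0.44 against 6 h, while the median gene was at 0.01 and -0.02. The 12 h directions below are thus relative to the median gene. In bulk RNA, fewer cells that carry a transcript and less of it per cell cannot be told apart.

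IGFBP3, the main carrier of IGFs in serum, was the only member at or past 2-fold in any comparison with 0 h. Relative to its own median, probe set 210095_s_at read -0.23 on the 0 h array, then 0.23 (2 h), -0.97 (6 h) and 1.39 (12 h). Probe set 212143_s_at read -0.25, 0.25, -0.51 and 1.41 in the same order. Both were therefore higher at 2 h than at 0 h, lowest at 6 h and highest at 12 h. The 12 h array lay 3.13-fold above the 0 h array, a log2 ratio of 1.65 with an SD of 0.028 between the probe sets. It ranked 22 from the highest among the 19775 genes, of which 0.946% were 2-fold or more higher and 0.986% 2-fold or more lower.

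The step from 6 h to 12 h was the larger one. IGFBP3 was 4.42-fold higher at 12 h than at 6 h, a log2 ratio of 2.14 (SD 0.31 over 2 probe sets), rank 8 from the highest. In this comparison 0.799% of all genes were 2-fold or more higher and 0.885% lower. The step before it went the other way. At 6 h over 2 h the ratio was -0.98 (SD 0.31), or 1.98-fold lower, just short of 2-fold and rank 73 from the lowest, where 0.329% of all genes were 2-fold or more lower and 0.116% higher. At 2 h over 0 h it was 0.49 (SD 0.029), or 1.40-fold higher, rank 142 from the highest, and 0.10 if the mean of the other 3 arrays takes the place of 0 h. No member was past 2-fold there, and of all genes 0.0354% were higher and 0.0101% lower.

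At 6 h over 0 h the probe sets of IGFBP3 differed more in size, at -0.74 and -0.26, than at 2 h (0.47 and 0.51) or at 12 h (1.63 and 1.67). The 0, 2 and 12 h arrays thus gave nearly the same differences in both, and the 6 h array did not, though both were lower there. At 6 h over 0 h no member was past 2-fold, among 0.101% of all genes that were higher and 0.283% that were lower. Both probe sets have the suffix _s_at, which the manufacturer gives to those that can match several transcripts, and IGFBP3 has no value without them.

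**Figure D1:**
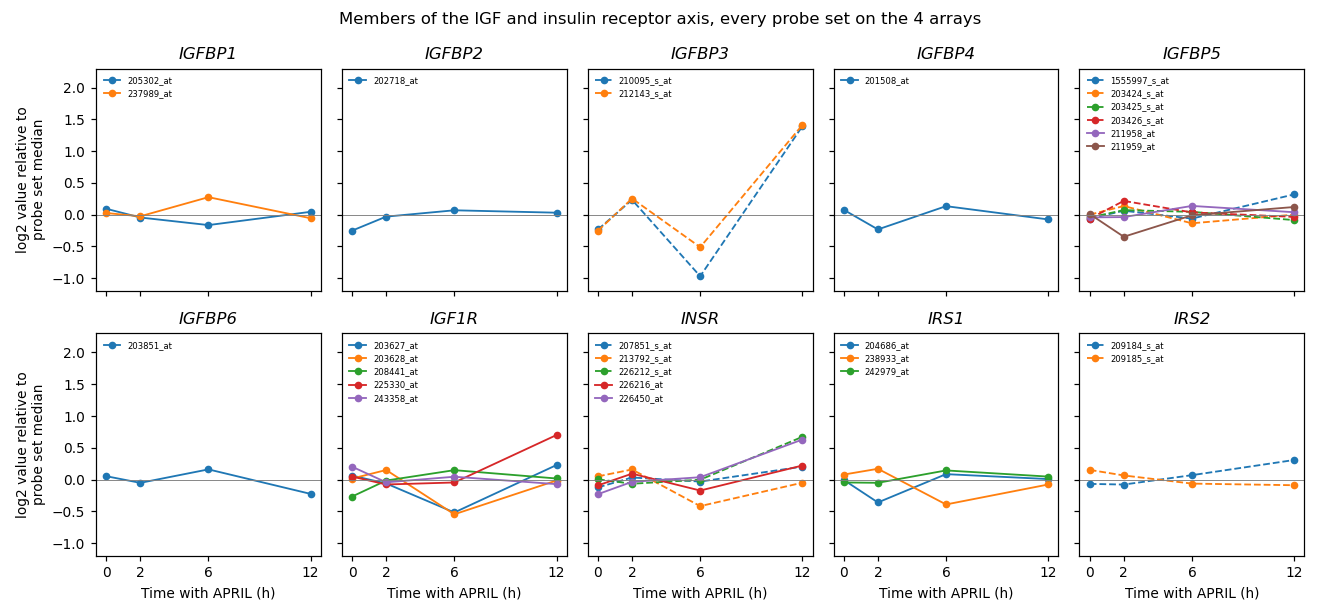
Each panel shows a member, with time of APRIL treatment in h on the x axis and the centred log2 value of the probe set on the y axis. Lines join the single arrays, a line for each probe set, dashed where the suffix is _s_at. IGFBP3 reaches 1.39 and 1.41 at 12 h, while every other member's probe sets lie between -0.55 and 0.70 on every array.

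IGFBP1, the neighbour of IGFBP3 on chromosome 7 with 0 protein-coding genes between them in the RefSeq annotation, did not share its course. Its probe set 205302_at read 0.093 (0 h), -0.045 (2 h), -0.16 (6 h) and 0.045 (12 h). The other, 237989_at, stood at 0.026, -0.026, 0.28 and -0.056. The probe sets thus went opposite ways at 6 h. At 12 h over 0 h IGFBP1 was at -0.065 (SD 0.024 over 2 probe sets), which is within the robust SD of all genes and becomes 0.29 if the arrays are centred on the bacterial RNAs. Its ratio was -0.095 (SD 0.061) at 2 h over 0 h and -0.0038 (SD 0.36) at 6 h over 0 h.

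IGFBP2, abundant in fetal liver, and IGFBP5, a binding protein of bone and muscle, are neighbours on chromosome 2, also with 0 protein-coding genes between them. IGFBP2, read by 202718_at alone, read -0.25 (0 h), -0.031 (2 h), 0.069 (6 h) and 0.031 (12 h). The untreated array was thus its lowest, and the later 3 lay close together in the deposited values. With the bacterial RNAs as the centre, IGFBP2 at 12 h was at 0.64 over 0 h and 0.39 over 6 h. Its ratios over 0 h were 0.22 at 2 h, 0.32 at 6 h and 0.28 at 12 h, ranks 2073, 1723 and 3104 from the highest. IGFBP5 was read by 6 probe sets that differed in sign. Its gene ratio was 0.12 (SD 0.22) at 2 h, 0.044 (SD 0.11) at 6 h and 0.054 (SD 0.15) at 12 h over 0 h. The SD between its probe sets exceeded the gene ratio each time, and the 2 h ratio turned to -0.18 without the _s_at probe sets and to -0.36 with the probe set of widest range. Its probe set 211959_at was at -0.36 at 2 h over 0 h, where the other 5 lay between 0.0044 and 0.28.

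IGFBP4, which mainly inhibits IGF action, and IGFBP6, which prefers IGF2 over IGF1, were read by 1 probe set each. IGFBP4 read 0.075 (0 h), -0.23 (2 h), 0.13 (6 h) and -0.075 (12 h). Its lowest array was thus the 2 h one, with a ratio of -0.31 over 0 h, 1.24-fold lower and rank 951 from the lowest. IGFBP6 read 0.052 (0 h), -0.052 (2 h), 0.16 (6 h) and -0.23 (12 h). It was lowest at 12 h, with ratios of -0.28 over 0 h and -0.39 over 6 h, but with the bacterial RNAs as the centre these were 0.074 and 0.047. IGFBP4 at 12 h over 0 h likewise was at -0.15, and at 0.20 with that centre.

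INSR, the insulin receptor, had the largest ratio after IGFBP3 at 12 h over 0 h, at 0.33 or 1.25-fold, with an SD of 0.37 over 5 probe sets. The probe sets ranged widely. Probe set 226450_at read -0.23 (0 h), -0.036 (2 h), 0.036 (6 h) and 0.63 (12 h), a ratio of 0.86 at 12 h over 0 h. Probe set 226212_s_at stood at 0.0032, -0.066, -0.0032 and 0.67, a ratio of 0.67. Both were highest at 12 h, and 226450_at was also lowest at 0 h. In contrast, 213792_s_at stood at 0.050, 0.16, -0.42 and -0.050, so that its ratio at 12 h over 0 h was -0.10. The other 2 were at 0.31 and 0.33.

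Against 6 h, all 5 INSR probe sets were higher at 12 h, by log2 ratios from 0.24 to 0.68. The gene ratio was 0.39 (SD 0.18), or 1.31-fold, and rank 1493 from the highest. Among all 10523 genes with 2 or more probe sets, 47.1% had probe sets of 1 sign in this comparison. That share pools genes with 2 probe sets and with more, so it is no like measure for a gene with 5. The ratio is 0.83 when the arrays are centred on the bacterial RNAs.

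IGF1R, the receptor of IGF1 and IGF2, was split in the same comparison. Probe sets 203627_at, 203628_at and 225330_at were higher at 12 h than at 6 h, by 0.75, 0.53 and 0.75. The other 2, 208441_at and 243358_at, were at -0.13 and -0.12. The gene ratio was 0.53 (SD 0.45), or 1.45-fold, rank 840 from the highest. As a median over probe sets it was the second largest of the members after IGFBP3. By the mean over probe sets INSR, at 0.45, was above IGF1R, at 0.36.

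The courses behind this ratio differed between the IGF1R probe sets. Probe set 225330_at read 0.047 (0 h), -0.078 (2 h), -0.047 (6 h) and 0.70 (12 h), so that only its 12 h array was apart. Probe set 203628_at stood at 0.015, 0.15, -0.55 and -0.015, so that only its 6 h array was. Probe set 203627_at, at 0.062, -0.062, -0.52 and 0.23, had both. At 12 h over 0 h the gene ratio was 0.17 with an SD of 0.35, and 3 probe sets were above and 2 below 0.

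The substrates showed small ratios. IRS1, the first adaptor of both receptors, was read by 3 probe sets, and its gene ratio was -0.0056 (SD 0.23) at 2 h, 0.092 (SD 0.36) at 6 h and 0.015 (SD 0.13) at 12 h over 0 h. Its probe set 238933_at was the one apart at 6 h, at -0.47 over 0 h, while the others were at 0.092 and 0.19. IRS2, the other main substrate of the insulin receptor in liver, had ratios of -0.049 (SD 0.054), -0.039 (SD 0.25) and 0.067 (SD 0.44) at these times. At 12 h over 0 h its probe sets were at 0.38 (209184_s_at) and -0.24 (209185_s_at), in opposite directions.

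Over the 10 members the median log2 ratio was -0.027 at 2 h, 0.020 at 6 h and 0.061 at 12 h over 0 h, beside 0.016, 0.047 and 0.010 over all genes. Of the members, 7 lay above 0 and 3 below at 12 h over 0 h, and 51.7% of all genes lay above 0. Of the 7 members with 2 or more probe sets, 2 (IGFBP1 and IGFBP3) had probe sets of 1 sign at 12 h over 0 h, and 42.9% of all such genes did. The number of probe sets per gene, up to 6 in the members, was not matched in that share. The range of a probe set over the 4 arrays had a median of 0.39 for the members and 0.37 for all probe sets with 1 symbol.

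**Figure D2:**
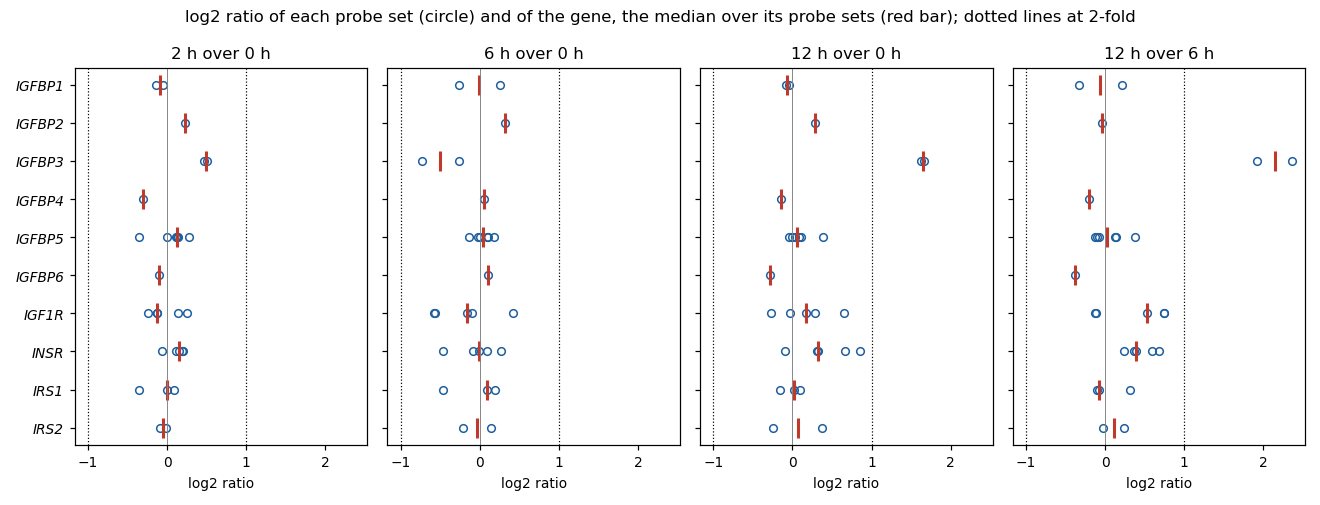
Panels show 2, 6 and 12 h over 0 h and 12 h over 6 h, with the log2 ratio on the x axis and a member per row. Circles are probe sets, red bars the median over them, and dotted lines mark 2-fold. Both IGFBP3 probe sets pass 2-fold at 12 h, all 5 INSR probe sets lie above 0 at 12 h over 6 h, and those of IGFBP5, IGF1R, IRS1 and IRS2 fall on both sides of 0 in every panel but 1, IRS2 at 2 h over 0 h.

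**Figure D3:**
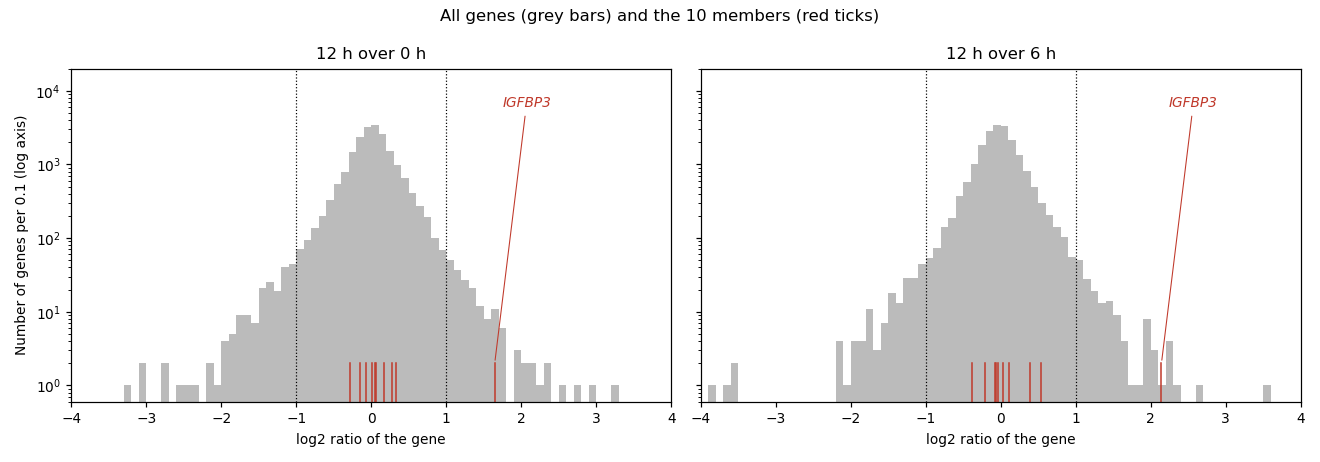
Grey bars count all genes by log2 ratio in steps of 0.1, on a log axis, for 12 h over 0 h and 12 h over 6 h. Red ticks are the 10 members and dotted lines mark 2-fold. IGFBP3, at 1.65 and 2.14, is in the upper tail of both, and the other members lie between -0.28 and 0.33 on the left and between -0.39 and 0.53 on the right.

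The genes whose courses lay nearest to that of IGFBP3 were sought among 10516 other genes with 2 or more probe sets, by Euclidean distance over the 3 log2 ratios against 0 h. KLHDC7B was nearest (distance 0.13), at 0.39 at 2 h, -0.43 at 6 h and 1.58 at 12 h over 0 h. DLGAP1-AS2 followed at a distance of 0.48 and CLMN at 0.502. For INSR these were SMURF1, KLF16 and PBX2, at distances of 0.021, 0.028 and 0.028. These lie below the SD of 0.37 between INSR probe sets at 12 h over 0 h. At 12 h over 6 h the genes were at 0.13, 0.34 and 0.30, and INSR at 0.39. The 3 ratios share the 0 h array, so these distances describe 4 arrays only.

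Of the other ligands, carriers and IGFBP proteases, 12 of 13 listed genes could be read. The list median was 0.051 at 12 h over 0 h, with 1 gene 2-fold or more higher and 0 lower. Over all genes the median was 0.010, and 0.946% were 2-fold or more higher and 0.986% lower. The listed gene past 2-fold was STC2, stanniocalcin 2, which binds and inhibits the IGFBP-cleaving protease PAPPA. STC2 was at 1.08 over 0 h, with probe sets far apart (SD 0.91 over 2), and at 1.21 over 6 h, where they lay close together (SD 0.022). IGF2R, the receptor that clears IGF2, was at 0.602 over 0 h (SD 0.51 over 3 probe sets of both signs). INS, insulin itself, was at 0.61, and INSRR, an orphan relative of the insulin receptor, at -0.62, on 1 probe set each. IGFBP7, a related protein of low IGF affinity, was at -0.27 (SD 0.75 over 3).

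Downstream signalling genes, of which 22 of 25 could be read, had a median of 0.054 at 12 h over 0 h, beside 0.010 over all genes. None was 2-fold or more higher or lower, where 0.946% of all genes were higher and 0.986% lower. EIF4EBP1, the translation repressor that mTOR phosphorylates, and AKT1, the kinase that insulin activates, were both at 0.69, on 1 probe set each. TSC1, which restrains mTOR, was at 0.52 on 1 probe set. PIK3CB, a catalytic PI3-kinase subunit, was at -0.34 (SD 0.46 over 2 probe sets) and PIK3R3, a regulatory one, at -0.29 (SD 0.73 over 2).

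The list of brakes on insulin signalling had the highest median of the 4 lists at 12 h, 0.36 over 14 of 16 genes at 12 h over 0 h and 0.39 at 12 h over 6 h, beside 0.010 and -0.024 over all genes. Against 0 h, 10 of its genes were above 0 and 4 below, 1 was 2-fold or more higher and 0 lower. Against 6 h, 13 were above 0, 3 were 2-fold or more higher and 0 lower. Over all genes, 51.7% were above 0 against 0 h, 0.946% were 2-fold or more higher and 0.986% lower. Against 6 h, 45.1% of all genes were above 0, 0.799% were 2-fold or more higher and 0.885% lower. GRB14, an adaptor that blocks the insulin receptor kinase in liver, was at 1.22 over 0 h and 1.06 over 6 h, on 1 probe set. TRIB3, a pseudokinase reported to bind AKT, was at 0.92 over 0 h and 1.49 over 6 h (SD 0.35 over 2 in each). SOCS2, which restrains growth hormone signalling, was at 0.48 over 0 h (SD 0.23 over 3 probe sets) and 1.11 over 6 h (SD 0.72, with probe sets from 0.15 to 1.55).

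At 6 h over 0 h, SOCS2 was the 1 gene of that list 2-fold or more lower, at -1.006 with an SD of 0.78 over 3 probe sets of both signs. Of all genes, 0.283% were 2-fold or more lower in this comparison and 0.101% higher. The phosphoinositide phosphatases INPPL1 and INPP5D were at 0.75 (on 1 probe set) and 0.68 (SD 0.37 over 3) at 12 h over 0 h. The AKT phosphatase PHLPP2 was at 0.49 (SD 0.33 over 2).

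FOXO factors and hepatic insulin-responsive targets, 17 of 18 read, had a median of 0.16 at 12 h over 0 h, beside 0.010 over all genes. In this list 1 gene was 2-fold or more higher and 0 lower, where 0.946% of all genes were higher and 0.986% lower. The gene was BCL6, a transcriptional repressor and FOXO target, at 1.78 (SD 0.085 over 3 probe sets), and at 0.67 (SD 0.31) at 6 h over 0 h. FOXO4 was at 0.63 (on 1 probe set) and FOXO3 at 0.39 (SD 0.13 over 4). PCK1, a gluconeogenic enzyme that insulin represses, was on 1 probe set at 0.37 at 12 h over 0 h and highest at 6 h, at 0.89. PPARGC1A, its coactivator, was at 0.33 with probe sets of both signs (SD 0.82 over 2). Of the 17 genes, 13 were above 0 at 12 h over 0 h and 4 below, and 51.7% of all genes were above 0. The lowest of the list was G6PC1, at -0.32 (SD 0.22), with both probe sets below 0.

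**Figure D4:**
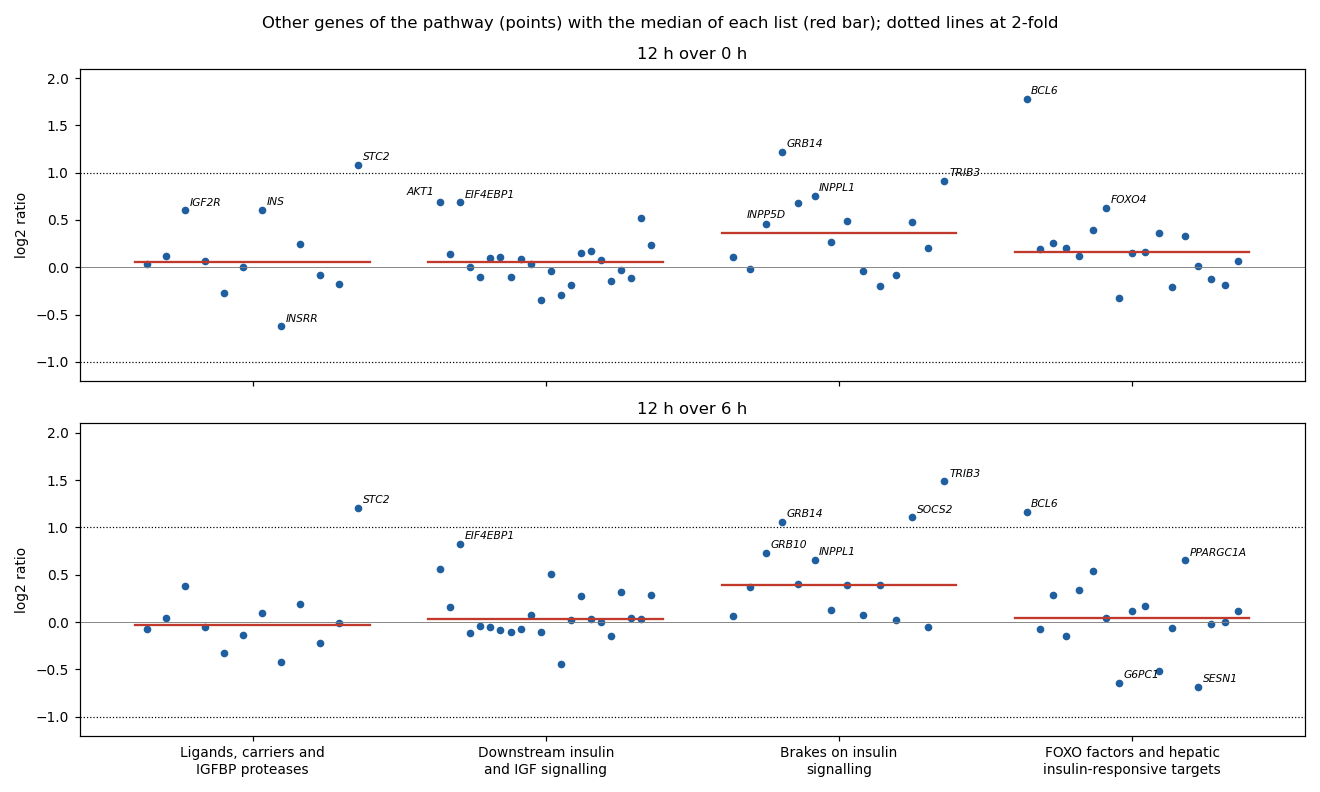
Points are the genes of the 4 lists that could be read, by log2 ratio at 12 h over 0 h (top) and 12 h over 6 h (bottom). Red bars are list medians, dotted lines mark 2-fold, and genes at 0.6 or more in either direction are named. The brakes on insulin signalling have the highest median in both panels, 0.36 and 0.39, and BCL6 is the highest point in the upper panel, at 1.78.

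Of the hepatocyte markers, 9 of 10 could be read and lay between -0.17 and 0.46 at 12 h over 0 h, with ALB (albumin) at 0.053 and AFP (alpha-fetoprotein) at 0.10. Among the markers of other cell types, the 7 fibroblast genes ranged from -0.028 to 0.89 at 12 h over 0 h with a median of 0.12. At 12 h over 6 h they ranged from -0.12 to 1.39 with a median of -0.078. The 1 past 2-fold there was PDGFRB, a receptor of platelet-derived growth factor, where 0.799% of all genes were 2-fold or more higher. PDGFRB was at 0.25 at 2 h, -0.49 at 6 h and 0.89 at 12 h over 0 h on 1 probe set. Its part in the IGFBP3 values was not tested. The collagen genes COL1A1, COL1A2 and COL3A1 were at 0.12, 0.026 and 0.055 at 12 h over 0 h. The 6 endothelial and 5 measured immune markers lay between -0.30 and 0.14 and between -0.16 and 0.096 at 12 h over 0 h.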

How the data were processed

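Total RNA of 4 samples of HepG2 cells, 1 per time, was read on Affymetrix U133 Plus 2.0 arrays. Per the submitters' processing notes, the deposited values, taken here as log2, were made by RMA, with no version given. Every probe set in the deposited table had a median of 0 (within 1e-06) across the arrays, so the values were centred at some step that no source describes. The log base and direction are not stated either. Base 2, the usual scale of RMA, and higher values for more transcript were assumed, without scanner files to test them.

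Symbols came from the platform annotation, updated by gene identifier to the RefSeq annotation of GRCh38.p14. Of 54675 probe sets, 41091 had 1 symbol and were used, 1801 had several, 11721 had none in this annotation and 62 were controls. Log2 ratios between pairs of arrays were taken per probe set, then the median over the probe sets of each gene. A gene counted as past the threshold at 2-fold or more. With 1 array per time there is no test, and the number of arrays limits the precision.

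The members and lists were chosen with earlier results of these data known. Named were all members, from each pathway list the 5 genes with the largest ratio at 12 h over 0 h in either direction and any past 2-fold over 0 h at any time, and the 3 genes nearest to each of the 2 members with the largest ratio. The markers named, G6PC1, the motifs searched and the genes of the closing section were chosen after values were seen. Listed genes that could not be read are not analysed here. Python 3.11.15, numpy 2.4.6, pandas 2.3.3 and matplotlib 3.10.9 were used, and the computation was tested on simulated data. Alternatives were 2 other centrings, leaving out probe sets ending in _x_at or _s_at, the mean over probe sets, the probe set of widest range, another reference and thresholds of 1.5-fold and 3-fold.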

Additional observations from a re-analysis of the deposited data

How the results depend on the processing

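IGFBP3 at 12 h over 0 h ranged from 1.63 to 2.00, and at 12 h over 6 h from 2.14 to 2.58, over all alternatives that give a value. At 2 h over 0 h IGFBP3 was at 0.10 against the mean of the other 3 arrays, and IGFBP5 turned to -0.18 without _s_at probe sets and -0.36 with the probe set of widest range. No member past 2-fold changed sign. With the _x_at and _s_at probe sets left out, 0 members were past 2-fold higher at 12 h over 0 h and 0 at 12 h over 6 h, since IGFBP3 has no other probe set. Members whose probe sets had 1 sign were then 0 at 6 h over 0 h and 1 at 12 h over 6 h, and the brakes list was at -0.17 at 6 h over 0 h. Against the mean of the other 3 arrays, 1 member, IGFBP3, was past 2-fold lower at 6 h, members of 1 sign numbered 2, and the brakes list had a median of -0.21. The 12 h array, where IGFBP3 was highest, is part of that mean. At 6 h over 2 h, 1 member, IGFBP3, was past 2-fold lower with centring on the bacterial RNAs and with the probe set of widest range. At the threshold of 1.5-fold IGFBP3 was the 1 member counted as lower, with its ratio still at -0.98.

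Centring on the bacterial RNAs raises every 12 h ratio alike. All 7 members with several probe sets then had 1 sign at 12 h over 0 h and all 7 over 6 h. The share of all genes with 1 sign was not taken under any alternative. Such counts in this section therefore cannot be read as particular to the members. The list medians became 0.40 for ligands and carriers, 0.41 for downstream signalling, 0.72 for brakes and 0.51 for FOXO targets over 0 h, and 0.40, 0.46, 0.82 and 0.47 over 6 h. With the probe set of widest range the medians at 12 h over 0 h were -0.11 for ligands and carriers, 0.74 for brakes and 0.37 for FOXO targets. Over 6 h they were 0.71 for brakes and 0.26 for FOXO targets. The cause was not tested. Centring on each array's median and the mean over probe sets moved none of these counts by over 1.5 times and none of these medians by over 0.16. No paired analysis was possible because each time has 1 array. Signal over background is not known from centred values, so dim probe sets could not be set apart.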

Other observations

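Some other genes alternated as IGFBP3 did. With limits set around its own values, so that the count depends on them (a log2 ratio of at least 0.4 at 2 h over 0 h, at most -0.8 at 6 h over 2 h and at least 1 at 12 h over 6 h), 9 of 19775 genes qualified, IGFBP3 included. The others were CTH, the enzyme that makes cysteine from cystathionine, SLC7A11, the cystine transporter, TRIB3, VLDLR, a lipoprotein receptor, TMPRSS3, KRT23, NOX3 and GPR83. CTH had ratios of 0.53, -1.63 and 1.59 in these 3 steps. SLC7A11 was at 0.47, -1.90 and 1.97. KLHDC7B, the gene nearest to IGFBP3 over the ratios against 0 h, is not among the 9, since its 2 h ratio of 0.39 falls just short of the first limit. CTH and SLC7A11 were well below the 0 h array at 6 h, with -1.10 and -1.505, against -0.497 for IGFBP3. At 12 h over 0 h CTH and SLC7A11 were at 0.49 and 0.53, and IGFBP3 was higher, at 1.65. GPR83, on 1 probe set, came closest to IGFBP3 at 12 h over 0 h, at 1.505. KRT23, NOX3, VLDLR and GPR83 rest on 1 probe set each, CTH and TRIB3 on 2, and SLC7A11 and TMPRSS3 on 3. The steps share arrays, and the 6 h array enters 2 of them.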
